A study of Mus musculus with 8 samples.

Results

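The genes described here are 44 genes of mitosis, chosen by name from the 14608 genes of the deposited expression table, and all 44 were found in it. They were followed in the outflow tract (OFT), the vessel that connects the embryonic ventricles with the aortic sac, of mouse embryos at embryonic day 11.5. The data hold 8 RNA-seq libraries, 4 labelled control and 4 labelled Mib1V943F/+ Gata6STOP/+ (hereafter mutant). Mutant embryos carried 1 missense allele of *Mib1*, an E3 ubiquitin ligase of NOTCH ligand signalling, together with 1 loss-of-function allele of *Gata6*, a zinc finger transcription factor, and the alleles were in trans. The labels give the genotype of the controls as Control and name their libraries WT, and embryos were pooled, with pool sizes that differ between the series' text (3 individuals) and the methods of the study (4 pairs of OFT in each of 3 pools per genotype), so the number of embryos behind a library is not known.

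Mitosis is driven by the kinase CDK1 bound to A- and B-type cyclins. Its entry is gated by CDC25 phosphatases, its exit by the anaphase-promoting complex (APC/C), a ubiquitin ligase that destroys cyclins and securin once every kinetochore has caught the spindle. Most of the genes involved are transcribed mainly in G2 and M phase, so in bulk tissue their RNA is used as a readout of the share of cycling cells. In the OFT, the cushion mesenchyme and the progenitors added from the second heart field proliferate, while cardiomyocytes divide less as they mature. In bulk RNA, fewer cycling cells and less RNA per cycling cell cannot be told apart.

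What the 44 genes share beyond their function was read first, in the promoter windows of RefSeq (GRCm38.p6), which run from 250 bases before to 50 bases after a start site. Windows were found for 37 of the 44 genes, 40 windows in all, because 3 genes had more than 1. The cell cycle genes homology region (CHR) is the element that the MuvB complex binds at G2/M promoters, and the CCAAT box is the element of the factor NF-Y. The CHR was searched as TTTGAA or TTCGAA and the CCAAT box as CCAAT, on both strands, and neither set of letters contains the other. CHR letters stood in 33 of the 40 windows of mitosis genes (82.5%) and in 1932 of the 13805 windows of genes in the table (14%). CCAAT letters stood in 31 (77.5%) against 37.7% of all windows. Both were present in 29 windows (72.5%) against 5.87%, and a CHR with at least 2 CCAAT matches in 18 (45%) against 2.27%. In the last 150 bases of the window the pair was found in 57.5% against 1.71%. The letters of an E2F site, GCGGGAA on either strand, which belong to genes of S phase, were in 1 window of a mitosis gene (2.50%) against 8.17% of all windows. These are matches of letters and say nothing about binding.

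The 200 bases before the start site are shown for *Cdk1*, the central kinase, and for genes near both ends of the genotype comparison. These were chosen after their values were seen: *Ube2c* and *Cdc20*, near the lower end, and *Nusap1* and *Nuf2*, at the higher end. *Espl1* (log2 fold change -0.15) lay between *Ube2c* and *Cdc20*, and *Ndc80* and *Ttk* (0.15 each) lay next to *Nuf2*. Their sequences are not shown. Each sequence is written 5′ to 3′ on the gene's own strand, and capitals mark CHR and CCAAT letters, on either strand. The positions are chr10:69352913-69353112 (minus strand), chr2:164769729-164769928 (plus), chr4:118437344-118437543 (minus), chr2:119618098-119618297 (plus) and chr1:169531465-169531664 (minus), all in GRCm38.p6.
Cdk1: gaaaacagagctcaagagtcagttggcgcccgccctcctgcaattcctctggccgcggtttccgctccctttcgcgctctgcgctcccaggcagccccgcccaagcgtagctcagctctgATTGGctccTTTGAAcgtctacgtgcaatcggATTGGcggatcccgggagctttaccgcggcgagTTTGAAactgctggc
Ube2c: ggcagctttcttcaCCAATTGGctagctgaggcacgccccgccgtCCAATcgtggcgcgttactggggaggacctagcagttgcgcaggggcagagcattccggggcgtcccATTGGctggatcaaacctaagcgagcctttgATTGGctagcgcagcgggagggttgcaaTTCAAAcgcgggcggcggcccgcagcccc
Cdc20: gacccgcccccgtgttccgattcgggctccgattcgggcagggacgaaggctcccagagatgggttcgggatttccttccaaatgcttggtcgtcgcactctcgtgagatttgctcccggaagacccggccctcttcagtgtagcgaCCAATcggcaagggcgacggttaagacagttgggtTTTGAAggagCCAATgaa
Nusap1: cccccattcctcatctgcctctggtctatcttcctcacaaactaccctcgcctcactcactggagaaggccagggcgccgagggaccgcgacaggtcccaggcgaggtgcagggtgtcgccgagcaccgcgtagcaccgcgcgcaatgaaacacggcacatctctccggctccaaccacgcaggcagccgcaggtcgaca
Nuf2: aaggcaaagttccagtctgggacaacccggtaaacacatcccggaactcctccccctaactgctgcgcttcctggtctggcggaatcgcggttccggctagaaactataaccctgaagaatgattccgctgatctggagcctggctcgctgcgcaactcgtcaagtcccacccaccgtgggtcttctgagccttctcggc
The stretch of *Cdk1* holds 2 CHR and 2 CCAAT matches, that of *Cdc20* holds 1 and 2, and that of *Ube2c* holds 1 and 5, where the first pair of CCAAT matches of *Ube2c* overlaps on opposite strands. The stretches of *Nusap1* and *Nuf2* hold 0 of either, which says only that these letters are not in this window. In the full windows, *Espl1*, *Ndc80* and *Ttk* hold 1 CHR match each and 1, 0 and 2 CCAAT matches. The printed stretches therefore do not stand for the genes at either end.

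**Figure D1:**
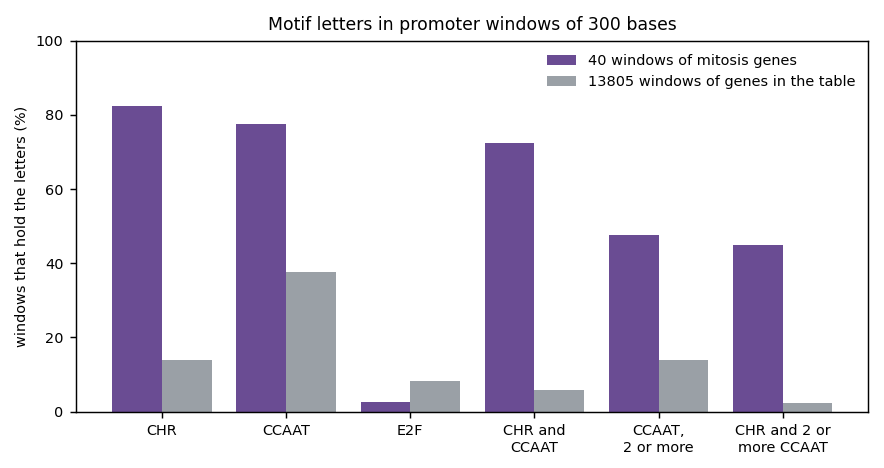
Share of RefSeq promoter windows that hold the letters of each motif, in percent, for 40 windows of mitosis genes (purple) and 13805 windows of genes in the table (grey). CHR and CCAAT letters stand together in 72.5% of the mitosis windows and in 5.87% of all windows, while the E2F letters stand in 2.50% and 8.17%.

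By an estimate from the step between values in each library, reads on listed genes numbered between 10669420 (control replicate 2) and 30469165, and the next lowest estimate was 21064242. The values are CPM (reads of a gene relative to the size of its library), normalized by the authors with the TMM method, which scales libraries on the genes that differ least. *Gata6* RNA ranged from 236 to 279 CPM in the controls and from 213 to 284 CPM in the mutants, and *Mib1* RNA from 107 to 138 and from 123 to 137 CPM, so neither level separates the groups and the directions rest on the labels. By quantitative PCR the paper found *Gata6* mRNA lowered in these mutants to the level predicted for them. Here its log2 fold change was -0.08 (standard error 0.10, limma adjusted p = 0.752), and the reason for this difference was not tested. All 20 cardiomyocyte markers had lower means in the mutants, and their summed level ran from 26810 to 31290 CPM in the mutants against 33550 to 39340 CPM in the controls.

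All 44 genes were well expressed. Their means over the control libraries ran from 21.6 CPM (*Cdc25c*) to 459 CPM (*Top2a*), and the lowest value in any library was 18.6 CPM. Together they took between 0.494% (control replicate 2) and 0.556% (mutant replicate 2) of the values of a library, with a sum of 5003 to 5307 CPM in the controls and 5103 to 5564 CPM in the mutants. Levels of different genes were compared per kilobase of the principal transcript in the annotation, the longest where several ranked equally, and therefore depend on that transcript. It was 7557 bases long for *Mad2l1* and 4375 bases for *Cdk1*. Per kilobase, the level of *Ube2c*, the ubiquitin-conjugating enzyme of the APC/C, was the highest of the 44 at 141 CPM, followed by *Top2a*, the topoisomerase that untangles sister chromatids, at 91.0 CPM, *Cenpa*, the centromeric histone, at 81.9 CPM, and *Birc5*, survivin, at 74.98 CPM. The lowest levels per kilobase were those of *Mad2l1* (9.81 CPM), *Espl1* (10.01 CPM), *Kif15* (10.03 CPM), *Cdc25b* (10.3 CPM) and *Cdc25c* (10.9 CPM). By this measure the cyclins stood above their kinase, with *Ccna2* at 70.8 CPM, *Ccnb1* at 66.3 CPM and *Ccnb2* at 53.5 CPM per kilobase against 31.4 CPM for *Cdk1*. Without length, the control mean of *Cdk1* (135 CPM) was below those of *Ccna2* (208 CPM) and *Ccnb1* (163 CPM) but above that of *Ccnb2* (82.6 CPM). *Ndc80* and *Nuf2*, partners in 1 kinetochore complex, lay close together at 19.8 and 22.0 CPM per kilobase. The subunits of condensin I spread more widely, from 16.7 CPM (*Ncapg*) to 56.0 CPM (*Smc4*) per kilobase.

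The comparison of genotypes asks whether the mitotic program of the OFT differs between compound heterozygotes and controls. None of the 44 genes passed the test, which was limma on log2(CPM + 0.5), its variances following the mean level, with Benjamini-Hochberg adjustment over all 14608 genes and a threshold of 0.05 (smallest adjusted p = 0.434, for *Nusap1*). The background was 0% of all genes, since 0 genes passed. That 0 belongs to limma on log2(CPM + 0.5). For the same genotypes the paper reported differentially expressed genes with a generalized linear model in edgeR, which was not run here. In its gene set enrichment analysis the paper also named the G2M checkpoint set among the enriched sets. That analysis covers all expressed genes as a set, a different measure from a test per gene, and it was not run here either. Without adjustment, 0 of the 44 genes had a p-value under 0.05, where the background was 12.1% of all genes (5.45% higher and 6.62% lower in the mutants). In 0 of the 44 genes did the values of the groups lie apart, which held for 7.1% of all genes. The log2 fold changes of mutant over control ran from -0.24 (*Ube2c*) to 0.17 (*Nusap1*), with 26 above and 18 below 0 and a median of 0.032, beside a median of 0.001 over all genes. The median absolute log2 fold change was 0.059, against 0.107 over all genes, whose median level was lower (26.7 against 92.2 CPM) and whose median standard error was larger (0.10 against 0.08). How far the data limit a difference is given by the 95% confidence intervals, whose median half-width was 0.17 on the log2 scale. The intervals reached from -0.51 to 0.38 at the extremes, and 43 of the 44 lay within 0.5 on either side of 0, the exception being *Ube2c*.

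**Figure D2:**
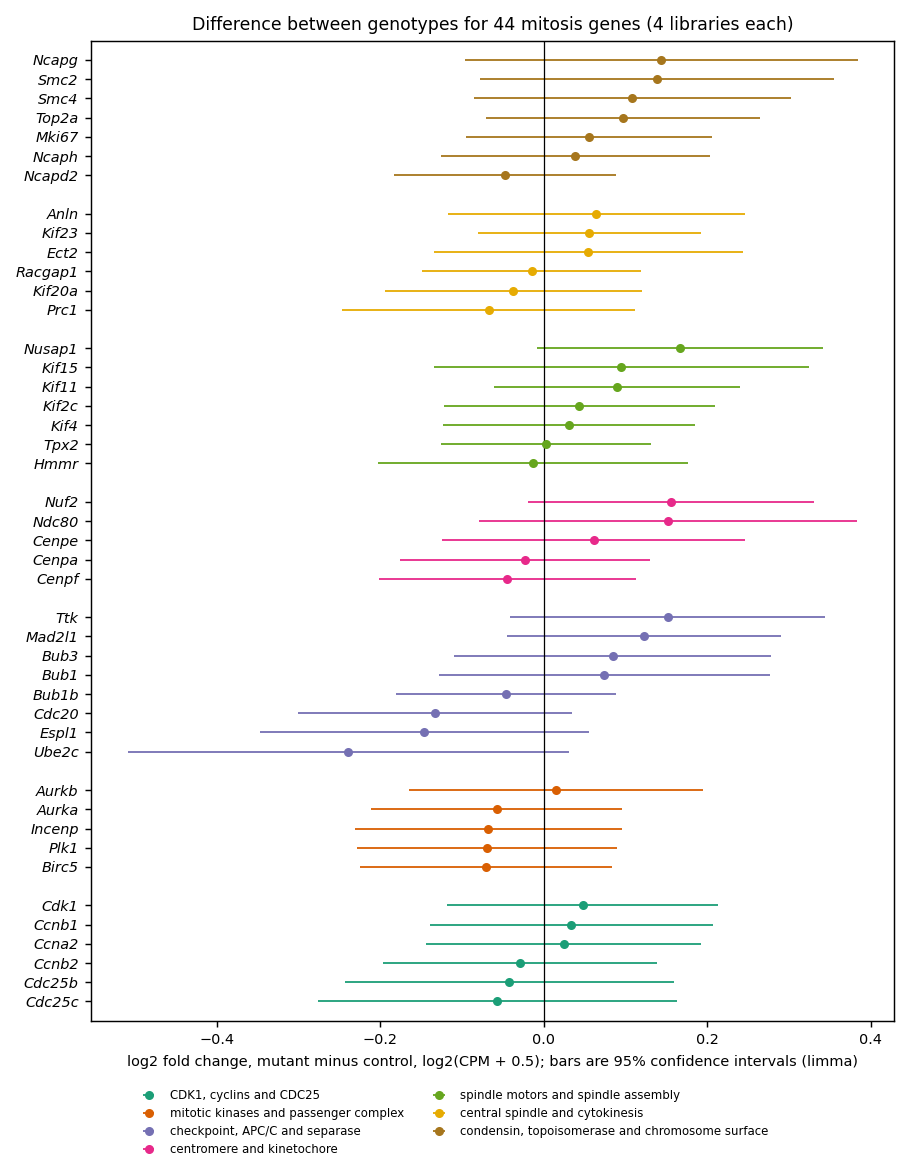
Log2 fold change, mutant minus control, of the 44 mitosis genes on the log2(CPM + 0.5) scale, in 7 role groups marked by colour, as points with 95% confidence intervals from limma (4 libraries per genotype). Every interval crosses 0, and the points lie between -0.24 (*Ube2c*) and 0.17 (*Nusap1*).

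Among CDK1, its cyclins and the CDC25 phosphatases, 3 of 6 genes were above and 3 below 0, with a median log2 fold change of -0.0025. *Cdk1* (ENSMUSG00000019942, chromosome 10, 69335146 to 69352938, minus strand) had values of 124, 137, 141 and 137 CPM in the controls, listed from replicate 1 to 4 here and for the genes that follow, and of 137, 157, 138 and 126 CPM in the mutants. Mutant replicate 2 was the highest library and control replicate 1 the lowest, and the other 6 lay between 126 and 141 CPM. The means were 135 ± 7.68 and 140 ± 12.6 CPM (SD, n = 4 each), and the log2 fold change was 0.05 (standard error 0.08, limma adjusted p = 0.814, exact permutation p = 0.543, two-sided). *Ccnb1*, the main mitotic cyclin, was at 163 ± 11.6 against 167 ± 16.2 CPM (SD, n = 4 each), and *Ccna2*, which also acts in S phase, at 208 ± 8.04 against 212 ± 22.9 CPM.

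Of the mitotic kinases and the chromosomal passenger complex, which corrects faulty kinetochore attachments, 4 of 5 genes were below 0, with a median log2 fold change of -0.07. This median was -0.0077 with the trend of each library with GC content removed. *Birc5*, a passenger subunit (ENSMUSG00000017716, chromosome 11, 117849251 to 117855743, plus strand), was at 69.4, 77.9, 70.1 and 73.7 CPM in the controls and at 75.5, 68.2, 64.3 and 69.1 CPM in the mutants. The groups overlap, with control replicate 2 the highest and mutant replicate 3 the lowest. Its log2 fold change was -0.07 (standard error 0.07, limma adjusted p = 0.687, exact permutation p = 0.257). *Plk1*, the polo-like kinase of spindle assembly, was at 97.6 ± 5.80 against 93.1 ± 6.78 CPM, and *Aurkb*, the kinase of the passenger complex, at 53.2 ± 4.84 against 53.7 ± 3.63 CPM (SD, n = 4 each).

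The group of the spindle checkpoint, the APC/C and separase held the widest spread, with 4 of 8 genes on each side of 0. *Ube2c* (ENSMUSG00000001403, chromosome 2, 164769898 to 164778822, plus strand) was at 134, 161, 139 and 152 CPM in the controls and at 145, 91.7, 130 and 136 CPM in the mutants. Mutant replicate 2 stood far below the other 7 libraries, and without it the groups still overlapped. The means were 146 ± 12.3 and 126 ± 23.4 CPM (SD, n = 4 each), and *Ube2c* had a log2 fold change of -0.24 (standard error 0.12, limma adjusted p = 0.451, exact permutation p = 0.171), which was -0.096 without mutant replicate 2. *Cdc20*, the coactivator that turns on the APC/C at anaphase, and *Espl1*, separase, which cuts cohesin, had log2 fold changes of -0.13 and -0.15. The checkpoint gene *Bub1b* was also below 0, at -0.05. On the other side of 0, the checkpoint genes *Ttk*, *Mad2l1*, *Bub3* and *Bub1* had log2 fold changes of 0.15, 0.12, 0.08 and 0.07. With the trend of each library with GC content removed, these stood at 0.05, -0.01, 0.09 and -0.05. At that setting *Ube2c*, *Espl1*, *Cdc20* and *Bub1b* stood at -0.22, -0.07, -0.06 and -0.04.

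At the kinetochore, which joins chromosomes to spindle fibres, 3 of 5 genes were above 0. Their median log2 fold change was 0.06, and -0.04 with the GC trend removed. *Nuf2* (ENSMUSG00000026683, chromosome 1, 169497934 to 169531464, minus strand) was at 47.4, 47.6, 51.0 and 53.7 CPM in the controls and at 55.6, 63.2, 52.6 and 51.6 CPM in the mutants. Mutant replicate 2 was again the extreme library, here the highest, and 2 mutant libraries lay below control replicate 4. The log2 fold change of *Nuf2* was 0.16 (standard error 0.08, limma adjusted p = 0.451, exact permutation p = 0.114), and that of its partner *Ndc80* was 0.15. That of *Nuf2* was 0.0937 without mutant replicate 2 and 0.0455 with the trend of each library with GC content removed. The centromeric histone *Cenpa* was at 121 ± 9.48 against 119 ± 5.12 CPM, and the motor *Cenpe* at 99.7 ± 10.7 against 104 ± 6.99 CPM (SD, n = 4 each).

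Among the spindle motors and assembly factors 6 of 7 genes were above 0. Their median log2 fold change was 0.04, and -0.0097 with the GC trend removed. *Nusap1*, which bundles spindle microtubules near chromosomes (ENSMUSG00000027306, chromosome 2, 119618298 to 119651244, plus strand), was at 73.5, 65.4, 62.8 and 74.2 CPM in the controls and at 74.0, 86.8, 74.2 and 74.8 CPM in the mutants. Only mutant replicate 2 stood clear of the controls, and the other 3 mutant libraries lay at the level of control replicates 1 and 4. The log2 fold change was 0.17 (standard error 0.08, limma adjusted p = 0.434, exact permutation p = 0.0857), and it was 0.1106 without mutant replicate 2 and 0.0716 with the GC trend removed. *Kif11*, the motor that pushes spindle poles apart, was at 127 ± 9.82 against 135 ± 4.77 CPM, while *Tpx2*, an activator of Aurora A, was at 150 ± 6.02 in the controls and at 150 ± 4.25 CPM in the mutants (SD, n = 4 each), the smallest difference of the 44.

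For the central spindle and cytokinesis, 3 of 6 genes lay on each side of 0. *Kif23*, the motor of centralspindlin (ENSMUSG00000032254, chromosome 9, 61915905 to 61946774, minus strand), was at 88.4, 84.5, 87.1 and 89.5 CPM in the controls and at 88.3, 98.1, 90.4 and 86.7 CPM in the mutants. Apart from mutant replicate 2, the libraries lay between 84.5 and 90.4 CPM in both groups. The log2 fold change was 0.06 (standard error 0.06, limma adjusted p = 0.730, exact permutation p = 0.286). Its partner *Racgap1* was at 160 ± 8.598 against 159 ± 4.48 CPM (SD, n = 4 each).

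The genes of chromosome condensation had the highest median log2 fold change of the 7 groups, 0.097, with 6 of 7 genes above 0. This median was 0.0374 without mutant replicate 2, 0.0043 with the trend of each library with GC content removed, and -0.0225 without control and mutant replicates 2, where that of the mitotic kinases was 0.0104. *Smc2*, a core ATPase of condensin (ENSMUSG00000028312, chromosome 4, 52439243 to 52488260, plus strand), was at 150, 121, 138 and 153 CPM in the controls and at 144, 186, 146 and 144 CPM in the mutants. Control replicate 2 was the lowest library and mutant replicate 2 the highest, and the 6 others overlapped between 138 and 153 CPM. Its log2 fold change was 0.14 (standard error 0.10, limma adjusted p = 0.573, exact permutation p = 0.429), and without those 2 libraries it was -0.02. *Top2a* (ENSMUSG00000020914, chromosome 11, 98992943 to 99024189, minus strand) was at 464, 419, 485 and 467 CPM in the controls and at 470, 554, 481 and 460 CPM in the mutants. The same 2 libraries were its lowest and highest. *Mki67*, which coats mitotic chromosomes and is the common histological marker of cycling cells (ENSMUSG00000031004, chromosome 7, 135689784 to 135716361, minus strand), was at 455, 402, 445 and 447 CPM in the controls and at 454, 490, 450 and 423 CPM in the mutants. Here too the extremes were control and mutant replicates 2, and the log2 fold changes of *Top2a* and *Mki67* were 0.10 and 0.05 (standard errors 0.08 and 0.07, limma adjusted p = 0.605 and 0.755, exact permutation p = 0.371 for both).

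Of the 8 libraries, 2 carried most of the extremes. Mutant replicate 2 held the highest value of all 8 libraries in 25 of the 44 genes and the lowest in 8. Control replicate 2 held the lowest in 15 and the highest in 9. Mutant replicates 3 and 4 and control replicate 1 held the highest value in 0 genes. The extremes of control replicate 2, and in part those of mutant replicate 2, went with base composition. The transcripts of the 44 genes had a median GC content of 46.9% (39.7% to 56.1%), below the 50.1% of all genes. In the 22 genes below that median, control replicate 2 was the lowest library in 15 and the highest in 0, and mutant replicate 2 was the highest in 18 and the lowest in 2. In the 22 genes above it, control replicate 2 was the highest in 9 and the lowest in 0. Mutant replicate 2 was the highest in 7 of these GC-rich genes and the lowest in 6, so its extremes there lay on both sides. Expressed as the mean log2 deviation from each gene's own mean, control replicate 2 stood at -0.17 in the GC-poor genes and at 0.08 in the GC-rich genes, and mutant replicate 2 at 0.18 and -0.04.

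**Figure D3:**
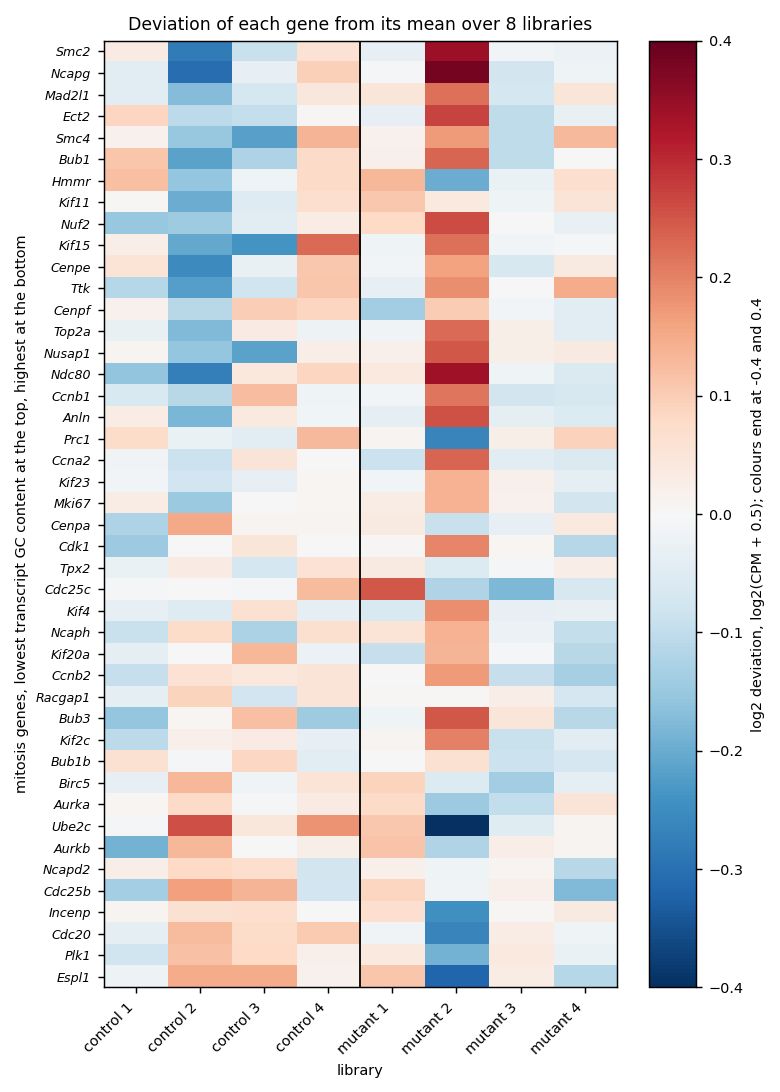
Log2 deviation of each mitosis gene from its own mean over the 8 libraries (red above, blue below), with genes ordered from the lowest transcript GC content (top) to the highest (bottom) and libraries in columns, controls left of the line. Control replicate 2 is blue at the top and red at the bottom, and mutant replicate 2 runs the other way, with *Prc1* and *Hmmr* as blue cells among GC-poor genes.

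The same tilt was present over all genes. In control replicate 2 the median log2 deviation was -0.18 in genes below a GC content of 45.3% and 0.17 in genes above 54.91%, and in mutant replicate 2 it was 0.17 and -0.16. In the 6 other libraries these medians lay between -0.10 and 0.09, and both of these ends were those of control replicate 3, tilted as in control replicate 2. Across the 44 genes, which share each library and are not independent, the Pearson correlation of deviation with GC content was 0.87 in control replicate 2 and -0.65 in mutant replicate 2 (a description, n = 44 genes). It was 0.59 in control replicate 3, and between -0.42 (mutant replicate 4) and 0.27 (mutant replicate 3) in the remaining libraries. The trend with GC content was therefore not confined to the replicates 2. Control replicate 2 was also the library with the fewest estimated reads. Once the trend of each library with GC content was removed by a smoothed curve, the median spread of the 44 genes within genotypes dropped from 0.109 to 0.0842 on the log2 scale, the median log2 fold change moved from 0.032 to -0.014, and 15 genes changed sign. At that setting 17 genes were above and 27 below 0, and 0 passed the adjusted threshold. *Cenpf*, a kinetochore protein of G2 and M phase, alone had an unadjusted p-value under 0.05 (p = 0.0240, limma adjusted p = 0.361), lower in the mutants (exact permutation p = 0.486 before the trend was removed). That permutation p does not describe the values with the trend removed. With it removed, the log2 deviations of *Cenpf* ran from -0.0035 to 0.1818 in the controls and from -0.1531 to -0.0046 in the mutants. The groups then lay narrowly apart. The background at this setting was 6.44% of all genes lower and 4.7% higher, and 0 mitosis genes were higher.

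**Figure D4:**
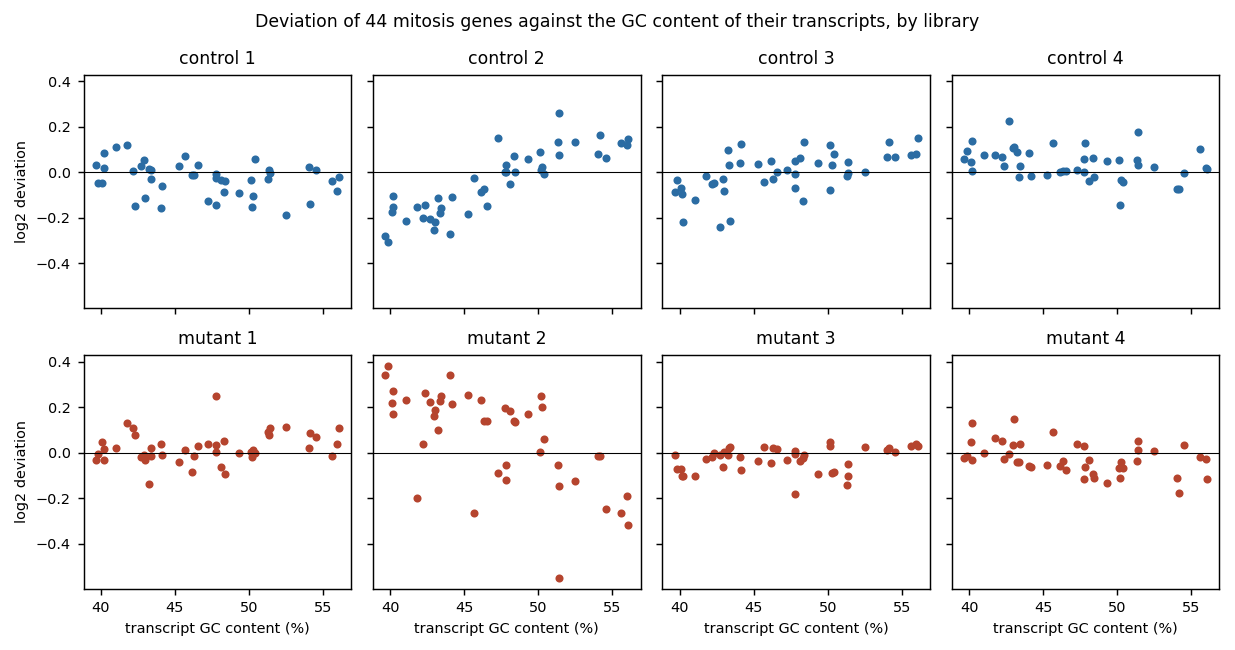
Log2 deviation of the 44 mitosis genes from their means against the GC content of their transcripts in percent, 1 panel per library (controls blue, mutants red), each point a gene. The points climb with GC content in control 2 (r = 0.87) and, less, in control 3 (r = 0.59), and descend in mutant 2 (r = -0.65).

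Removing the GC trend left some genes of mutant replicate 2 away from their means. In this library 15 genes lay below and 29 above their own mean, and 13 of the 15 were still below after the GC trend was removed. The deepest of these, with the trend removed, were *Ube2c* (log2 deviation -0.53), *Hmmr*, a spindle protein that binds hyaluronan as well (-0.37), and *Prc1*, the bundler of central spindle microtubules (-0.36). The highest were *Bub3* (0.25), *Ndc80* (0.20) and *Kif2c*, a microtubule depolymerase (0.20). *Hmmr* and *Prc1* are GC-poor at 41.8% and 45.7%, among genes that were high in this library. With 1 library this has no replicate, and its part in the fold changes was followed only by leaving the library out. Without mutant replicate 2, 22 genes were above and 22 below 0, the median was 0.0003, and the log2 fold changes ran from -0.096 to 0.11.

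The fold changes were also set beside the promoter letters. The 26 genes with a window holding both CHR and CCAAT letters had a median log2 fold change of -0.014, and the 11 genes with a window but without the pair had 0.064. With the median standard error of 1 gene at 0.08, these medians are given as a description, and they were not tested against each other. Both medians hold the GC trend of the libraries. *Anln*, the middle of the 11 genes, moved from 0.064 to -0.0025 with that trend removed. The 11 genes then ran from -0.0558 (*Birc5*) to 0.0716 (*Nusap1*), and the 26 from -0.2229 (*Ube2c*) to 0.0858 (*Bub3*). The part of GC content in the difference between the medians was not tested.

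Further genes of the pathway were read from lists typed from general knowledge. Of 79 further mitosis genes, all measured, 0 passed the adjusted test. Unadjusted p-values under 0.05 were found for 3 that were higher and 2 that were lower in the mutants, where the backgrounds over all genes were 5.45% and 6.62%, and the median log2 fold change was 0.037. With the GC trend removed 1 was higher and 2 were lower, and the median was -0.0147. *Cenpu*, a constitutive centromere protein, was at 7.64, 6.64, 7.10 and 8.595 CPM in the controls and at 11.2, 10.4, 9.13 and 9.14 CPM in the mutants, a log2 fold change of 0.39 (standard error 0.12, limma adjusted p = 0.270). Its groups did not overlap, as in 3.2% of all genes in that direction. *Sgo1*, the shugoshin that guards centromeric cohesin, was at 27.2 ± 1.51 against 31.9 ± 2.32 CPM, and *Kifc1*, a minus-end motor, at 69.7 ± 6.05 against 57.3 ± 8.30 CPM (SD, n = 4 each), with limma adjusted p-values of 0.331 and 0.353. The log2 fold change of *Sgo1* was 0.23, and 0.11 with the GC trend removed, where it no longer had an unadjusted p-value under 0.05. Of 17 APC/C genes 1 had an unadjusted p-value under 0.05, beside 12.1% of all genes. This was *Anapc10* (11.1 ± 1.44 against 13.7 ± 1.84 CPM, SD, n = 4 each), whose log2 fold change was 0.29, and 0.148 with the GC trend removed, where 0 of the 17 genes were below that threshold. Of 14 genes for FOXM1, MuvB, B-MYB and NF-Y, regulators of G2/M promoters, 1 had an unadjusted p-value under 0.05. This was *Nfyb*, a subunit of NF-Y (37.6 ± 4.07 against 45.4 ± 4.37 CPM, SD, n = 4 each, limma adjusted p = 0.331). Of 19 measured genes among 20 CDK inhibitors and p53 targets, 0 were higher and 2 lower without adjustment, *Sesn2* and *Cdkn2d*, and neither was below that threshold with the GC trend removed. *Cdkn1c*, p57, was at 1098, 1151, 917 and 837 CPM in the controls and at 1023, 498, 746 and 967 CPM in the mutants, with mutant replicate 2 the lowest library (limma adjusted p = 0.473). Of 41 genes of S phase, 5 were higher and 1 lower without adjustment, beside 5.45% and 6.62% of all genes, among them *Slbp*, which binds histone mRNA (72.0 ± 4.23 against 82.4 ± 3.85 CPM), *Tyms*, thymidylate synthase (50.9 ± 1.36 against 57.2 ± 3.51 CPM), and, lower, the licensing factor *Cdt1* (54.3 ± 2.92 against 46.7 ± 3.90 CPM, SD, n = 4 each). None of them passed the adjusted test (smallest limma adjusted p = 0.326).

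Set beside markers of the cells of the OFT, the score of the 44 genes, the mean log2 deviation of its genes in a library, was -0.0101 ± 0.0369 in the controls and 0.0101 ± 0.0461 in the mutants (SD, n = 4 each). The score of the cardiomyocyte markers was 0.206 ± 0.105 and -0.206 ± 0.151, and 19 of its 20 genes had an unadjusted p-value under 0.05, all lower. The score of the cushion mesenchyme markers was -0.0406 ± 0.0877 and 0.0406 ± 0.0931, with 0 of 13 genes at that threshold. The erythroid markers varied most between libraries, from a score of -0.90 in mutant replicate 4 to 0.73 in mutant replicate 2, with 0 of 13 genes at that threshold. Mutant replicate 2, the library with the highest mitosis score (0.070), also had the lowest cardiomyocyte score (-0.36) and the highest scores of the epicardial (0.38) and macrophage (0.27) markers. With the GC trend removed its mitosis score was 0.0038, below those of control replicates 2, 3 and 4 (0.0269, 0.035 and 0.0235) and of mutant replicate 1 (0.0144). Endocardial, smooth muscle, epicardial, neural crest and macrophage markers held 0, 2, 0, 2 and 0 genes higher and 3, 3, 1, 0 and 3 lower at that threshold, beside 5.45% and 6.62% of all genes, and every measured marker was above 0 CPM in every library. The part of cell composition in the values of the mitosis genes was not tested.

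**Figure D5:**
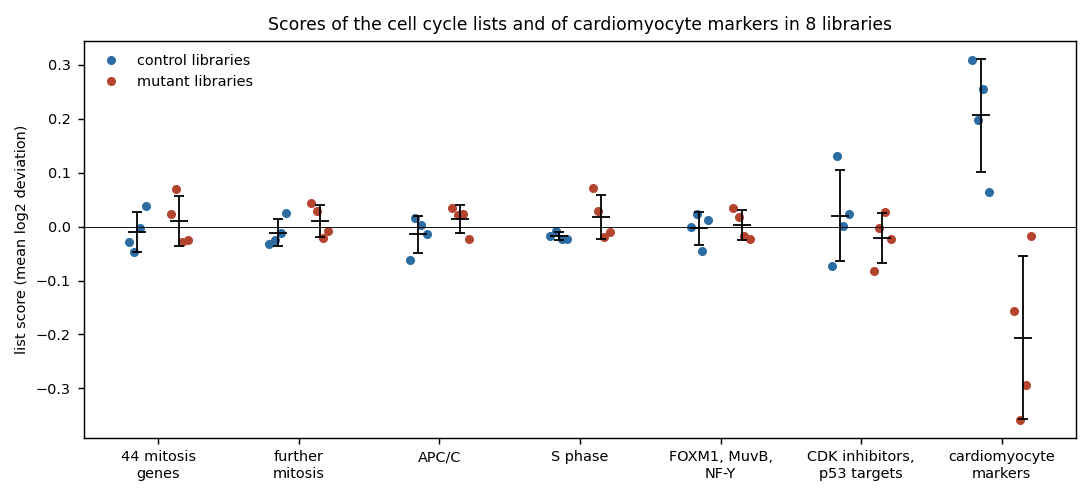
Score of each list (mean log2 deviation of its genes) in the 4 control (blue) and 4 mutant (red) libraries, with the mean and SD as black bars. The scores of the 44 mitosis genes overlap between genotypes (-0.0101 ± 0.0369 and 0.0101 ± 0.0461), while those of the cardiomyocyte markers do not.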

How the data were processed

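OFT RNA of 4 control and 4 mutant samples was sequenced. The authors trimmed 60 bp reads with cutadapt 1.18 and quantified them with RSEM 1.2.3 on GRCm38. The authors' table holds genes that reached 1 CPM in 3 samples or more, scaled by TMM in edgeR 3.32.1 (R 4.0.3). The deposited values are CPM for the 8 libraries, and all columns were used. Every value was a multiple of what 1 read is worth in its library (100% within 0.05 reads), which was 0.0325 to 0.0948 CPM.

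Genotypes were compared with limma 3.58.1 (R 4.3.3), with a trend, on log2(CPM + 0.5). On this scale the fold changes of low genes are understated. The fit held all 14608 genes and 8 libraries and was tested on simulated data. Single genes also had an exact two-sided permutation test (70 relabellings, smallest possible p 0.0286). Replicates are numbered libraries of pooled embryos, and p-values measure the spread between these libraries. Whether each library is a separate pool is not known, since the methods of the study name 3 pools per genotype. Members and lists were chosen with earlier results of these data known. Values in every library are given for mitosis genes with an unadjusted p-value under 0.05 or without overlap, for the smallest p-value of each role, and for *Cdk1*, *Mki67* and *Top2a*. Up to 3 genes, those with the smallest p-values, are named per further list, mostly by mean and SD. GC content and length come from principal transcripts of GENCODE M21 (GRCm38), and 14 genes had none. Libraries of a genotype differed by a chi-square per gene of 6.67 to 33.7, so none was a copy.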

Additional observations from a re-analysis of the deposited data

Results flagged for a closer look

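In 88 groups of 4 libraries (44 genes, 2 genotypes), 10 held a library set apart from the other 3, where chance gives about 1 in 20 for a single group. The genes share the same 8 libraries, so the groups are not independent and their number cannot be read against that rate. Mutant replicate 2 was that library in 7 of them, and it was the highest in each: *Smc2* at 186 CPM (next 146), *Ncapg* at 80.1 CPM (next 61.1), *Anln*, a scaffold of the cleavage furrow, at 150.4 CPM (next 123), *Nusap1* at 86.8 CPM (next 74.8), *Kif15* at 56.6 CPM (next 48.2), *Kif4*, a chromosome-bound motor, at 91.5 CPM (next 78.8) and *Ccna2* at 246 CPM (next 203). In the controls, *Ccnb2* was set apart at 76.6 CPM in replicate 1 (next 84.2), *Kif4* at 84.0 CPM in replicate 3 (next 78.5) and *Cdc25c* at 23.2 CPM in replicate 4 (next 21.2). The cause was not tested.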

How the results depend on the processing

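Over all alternatives run, 0 of the 44 genes passed the adjusted threshold. The number at an unadjusted p-value under 0.05 was 2 higher (*Nuf2* and *Nusap1*) with every library scaled to the same sum, which moved the median log2 fold change of all genes from 0.001 to 0.0222. It was 1 lower (*Cenpf*) with the GC trend removed, with or without the replicate block, where the median log2 fold change was -0.0137, and 1 lower (*Cenpf*) with control and mutant replicates 2 both left out, a setting chosen after seeing the data. When 1 library was left out, 0 to 2 genes were higher (*Nusap1* without control replicate 1, *Nusap1* and *Ttk* without control replicate 4) and 0 to 2 lower (*Espl1* and *Ube2c* without mutant replicate 1). The genes of the table at that threshold, 1763 with every library, ran from 1121 (without control replicate 2) and 1172 (without control replicate 3) to 2163. The log2 fold change of *Smc2* was -0.0035 with the GC trend removed, with or without the block. With both replicates 2 left out, those of *Cdk1*, *Top2a*, *Mki67* and *Smc2* were -0.001, -0.0057, -0.0225 and -0.0228. That of *Cdk1* ran from -0.0099 to 0.0935 when 1 library was left out. Pseudocounts of 0.1 and 1, a mean of at least 5 CPM and median-of-ratios scaling left the counts of mitosis genes at 0. The causes were not tested. Same-numbered libraries did not deviate together (correlations of 0.035, -0.185, 0.027 and -0.045). These correlations hold the GC trend, in which replicates 2 tilted in opposite directions, so they cannot exclude a pairing. With the replicate block 0 members and 1304 genes of the table had an unadjusted p-value under 0.05, and the block changed no adjusted call. With it *Anapc10*, *Sesn2*, *Cdkn2d* and *Tyms* no longer had an unadjusted p-value under 0.05. The planned count tests were not run. Every value was a whole multiple of a read, but in some libraries the lowest value was worth several reads, and read counts were not taken as recovered. Estimated depth was lowest in control replicate 2, where 1 read was worth 0.0948 CPM, and the lowest value of a mitosis gene in any library was 18.6 CPM.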
